A study of Rattus norvegicus with 23 samples.

Results

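The gene expression of the rat pulmonary vein (PV) was compared with that of the left atrium (LA) next to it, gene by gene. Levels are log2(normalized signal + 1), where the normalized signal is the intensity that the authors deposited for each array probe, and a gene took its highest probe on each array. The scanner software calls each spot as well above background or not, and a gene was kept where it had that call on all 4 PV arrays or on all 4 LA arrays. By this rule 12254 of the 16544 genes named on the array were compared, over 8 of the 23 arrays of the series. Of them, 11355 were well above background on all 8 arrays, 305 only on the full set of PV arrays, and 594 only on the full set of LA arrays.

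The tissue donors were 12 Wistar rats, all male and 8 to 11 weeks old. A sample of the sinoatrial node took 2 rats, so PV and LA samples may share animals. The heart and lungs were taken out as 1 block and perfused on ice, soft tissue with the vagus nerve and fat was cut away under a stereomicroscope, and PV and the part of LA that borders it were then dissected. The other arrays held the sinoatrial node region (SA), the left and right ventricles (LV and RV) and the pulmonary artery (PA), which appear here as reference levels and in an alternative fit of all arrays. The labels number the arrays of a region 1 to 4 but do not say which rats they came from, so the p-values measure the spread between these samples.

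In rodents the pulmonary veins are wrapped over a long distance in a sleeve of cardiac muscle that is continuous with the left atrium and is electrically active. The wall of the vein also holds smooth muscle and connective tissue, and autonomic ganglia and nerves lie in the fat around the veins and the atrium. The sleeve is known as a site where atrial fibrillation can start.

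Of the 12254 genes, 1704 (13.9%) differed at an adjusted p below 0.05 in limma, 863 (7.04%) higher and 841 (6.86%) lower in PV. The differences were larger on the higher side: 337 of the higher genes but 198 of the lower genes differed by more than 1 on the log2 scale, and 78 and 37 by more than 2. The median difference of all genes was -0.04. Of the 1704 called genes, 1661 did not overlap between the 4 PV and 4 LA arrays. A low p with so few arrays largely requires this, and the share over all genes was not counted. At an unadjusted p below 0.05, 3544 genes differed. The number of arrays limits the precision. The count fell to 925 called genes without LA replicate 2, to 947 without PV replicate 4 and to 996 without LA replicate 3, and was at most 1547 when any other array was left out.

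The position of an array on its slide moved with region. LA replicates 1, 3 and 4 and PV replicate 2 lay in row 1 of their slides, and LA replicate 2 and PV replicates 1, 3 and 4 in row 2. The share of probes called well above background on these 8 arrays was 76.2% to 79.8% in row 1 and 59.9% to 65.9% in row 2. With array row as a block, 903 genes were called, 483 higher and 420 lower, of which 855 had been called in the same direction without it. Row 1 alone, with 1 PV array, gave 0 calls in limma and 1623 genes at an unadjusted p below 0.05, and row 2 alone, with 1 LA array, gave 15 and 2135. Below, the members of each gene list are counted both without and with this block (row block), and their counts are to be read against the 13.9% of all genes that were called, 7.04% higher and 6.86% lower.

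**Figure D1:**
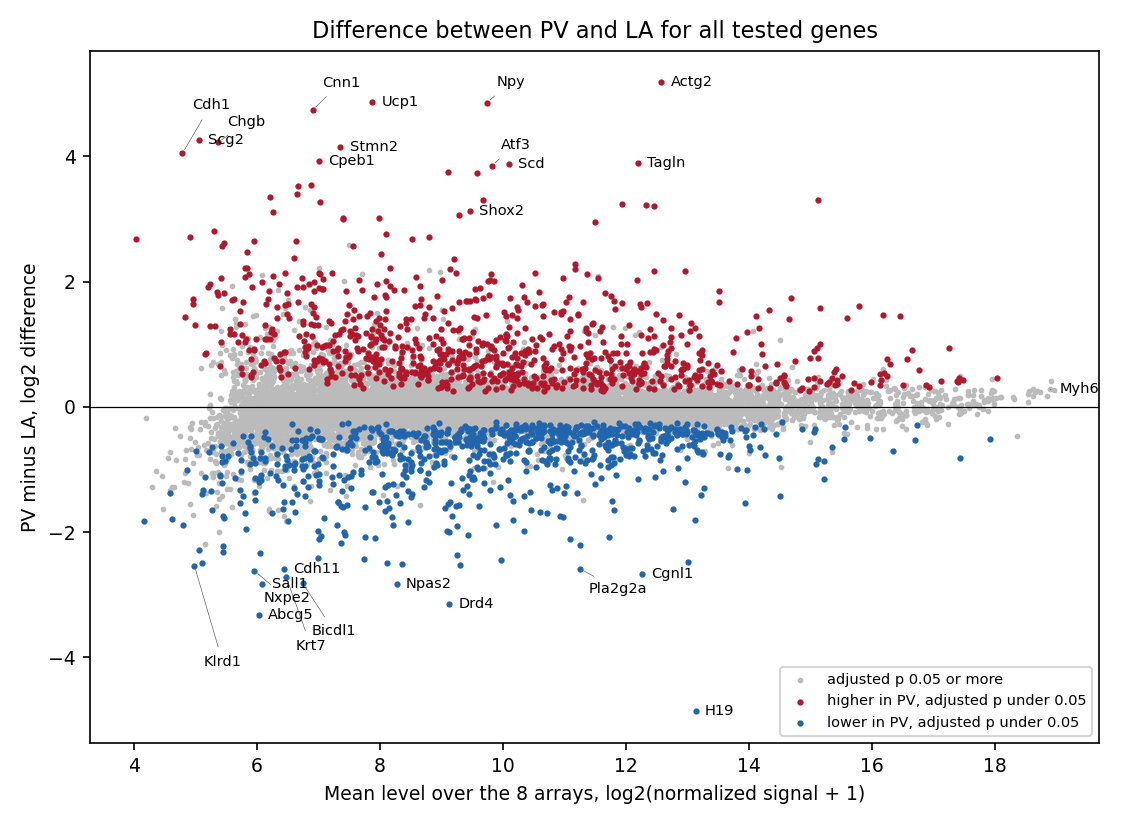
Difference between PV and LA (vertical axis, log2) against the mean level over the 8 arrays (horizontal axis, log2(normalized signal + 1)) for the 12254 genes. Red and blue points are the 863 genes higher and the 841 genes lower in PV at an adjusted p below 0.05, grey points are the others, and Actg2 at 5.19 and H19 at -4.86 lie farthest from 0.

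The high-level genes of the contractile apparatus had small differences. Of 16 tested sarcomere genes, 14 had a positive difference. Their median was 0.25, and 0.04 under quantile normalization. Of 28 tested genes of the atrial myocyte, 3 were higher, 4 lower and 21 not called, and their median difference was 0.13. The called genes were 7 of 28, against 13.9% of all genes. Under quantile normalization 1 was higher and 4 lower. Without 1 array, 1 to 3 were higher and 2 or 3 lower, with 1 higher without PV replicate 4. The lower calls were 3 without PV replicate 2 or LA replicate 3 and 2 without each of the others. Myl7, the atrial regulatory light chain, had a mean of 19.09 ± 0.08 (SD, n = 4) in PV and 18.83 ± 0.14 in LA. Myh6, the alpha myosin heavy chain, had 19.04 ± 0.14 and 18.77 ± 0.19, and Tnni3, cardiac troponin I, 18.38 ± 0.04 and 18.22 ± 0.16. The differences of 0.26, 0.28 and 0.16 were not called. The sarcoplasmic calcium pump gene Atp2a2 differed by 0.09 ± 0.09, adjusted p = 0.537 and the natriuretic peptide gene Nppa by -0.47 ± 0.34, adjusted p = 0.42, neither of them called.

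The myocyte genes that passed the test were in part small changes at a high level. Sln, which encodes the atrial calcium pump inhibitor sarcolipin, was lower in PV, with a difference of -0.51 (adjusted p = 0.0134), Myom2, a protein of the sarcomere's M-band, -0.87 (0.00626), and Pam, an enzyme of peptide amidation that is abundant in atrial granules, -0.81 (0.0229). Mybpc1 was the exception in size. This gene, which encodes the slow skeletal form of myosin binding protein C, was at 8.14, 7.49, 8.64 and 8.03 on PV replicates 1 to 4 and at 6.30, 5.96, 6.33 and 5.17 on LA replicates 1 to 4. The PV arrays all lay above the LA arrays, a difference of 2.13 ± 0.31 (SE) or 4.38-fold, with an adjusted p of 0.00483. Its mean level was 3.61 in SA, 2.95 over the 7 ventricle arrays and 3.81 in PA. With array row as a block, 2 members were called higher and 1 lower, and Sln (adjusted p = 0.0605) and Pam (0.0889) were not called.

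The smooth muscle list had the highest median of the 21 lists. Of 21 tested genes of the smooth muscle list, 16 were higher in PV and 0 lower, with a median difference of 1.40 against -0.04 over all genes. Of the 19 well above background on all 8 arrays, 14 were higher. Actg2, the enteric smooth muscle actin, was at 15.20, 14.81, 15.24 and 15.42 on PV replicates 1 to 4 and at 10.52, 9.99, 9.99 and 9.43 on LA replicates 1 to 4. The arrays of the regions were far apart, and the difference of 5.19 ± 0.23 (SE), 36.4-fold, had an adjusted p of 0.000102. Cnn1, which encodes the actin-binding protein calponin, was at 9.36, 8.48, 9.63 and 9.62 on PV replicates 1 to 4 and at 5.20, 3.49, 4.58 and 4.87 on LA replicates 1 to 4. No LA array reached the PV arrays, and 3 of 4 LA arrays were well above background. The difference was 4.74 ± 0.40 (SE) (adjusted p = 0.000573).

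Tagln (transgelin, an early smooth muscle marker) was at 14.29, 13.60, 14.31 and 14.38 on PV replicates 1 to 4 and at 10.61, 10.13, 10.37 and 9.85 on LA replicates 1 to 4. PV replicate 2 was the lowest of the PV arrays in each of these 3 genes and still lay above every LA array. The difference of Tagln was 3.90 ± 0.22 (SE), with an adjusted p of 0.000169. Integrin alpha 8 (Itga8) differed by 3.31 ± 0.38, adjusted p = 0.00181, the smooth muscle myosin heavy chain Myh11 by 3.23 ± 0.17, adjusted p = 0.000131, the tropomyosin Tpm2 by 3.20 ± 0.20, adjusted p = 0.000288, and the vascular actin Acta2 by 2.13 ± 0.14, adjusted p = 0.000351. For Tpm2 the probes disagreed in size, from 0.95 to 3.20. Rgs5, a marker of pericytes and of some arterial smooth muscle, differed by 1.13 ± 0.13, adjusted p = 0.00209. The transcriptional co-activator Myocd (-0.18 ± 0.09, adjusted p = 0.242) and smoothelin, Smtn (-0.04 ± 0.10, adjusted p = 0.852), were among the 5 that were not called. 13 members were called higher with array row as a block, and without any 1 array 12 to 14. In bulk tissue, fewer cells of a type and less RNA per cell cannot be told apart.

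The levels in the other regions place PV between LA and the artery. The mean of Actg2 was 17.99 ± 0.11 in PA, 13.35 ± 0.71 in SA and 10.93 ± 0.92 over the ventricles, against 15.17 ± 0.26 in PV. Myh11 stood at 17.50 in PA, 13.95 in PV, 13.01 in SA and 10.72 in LA. SA thus held the third level for both genes in this ordering by mean, with array ranges of 12.95 to 14.41 for Actg2 and 12.65 to 13.50 for Myh11. These ranges lay below those of PV (14.81 to 15.42 and 13.46 to 14.16), except for Myh11, where they touched between 13.46 and 13.50.

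**Figure D2:**
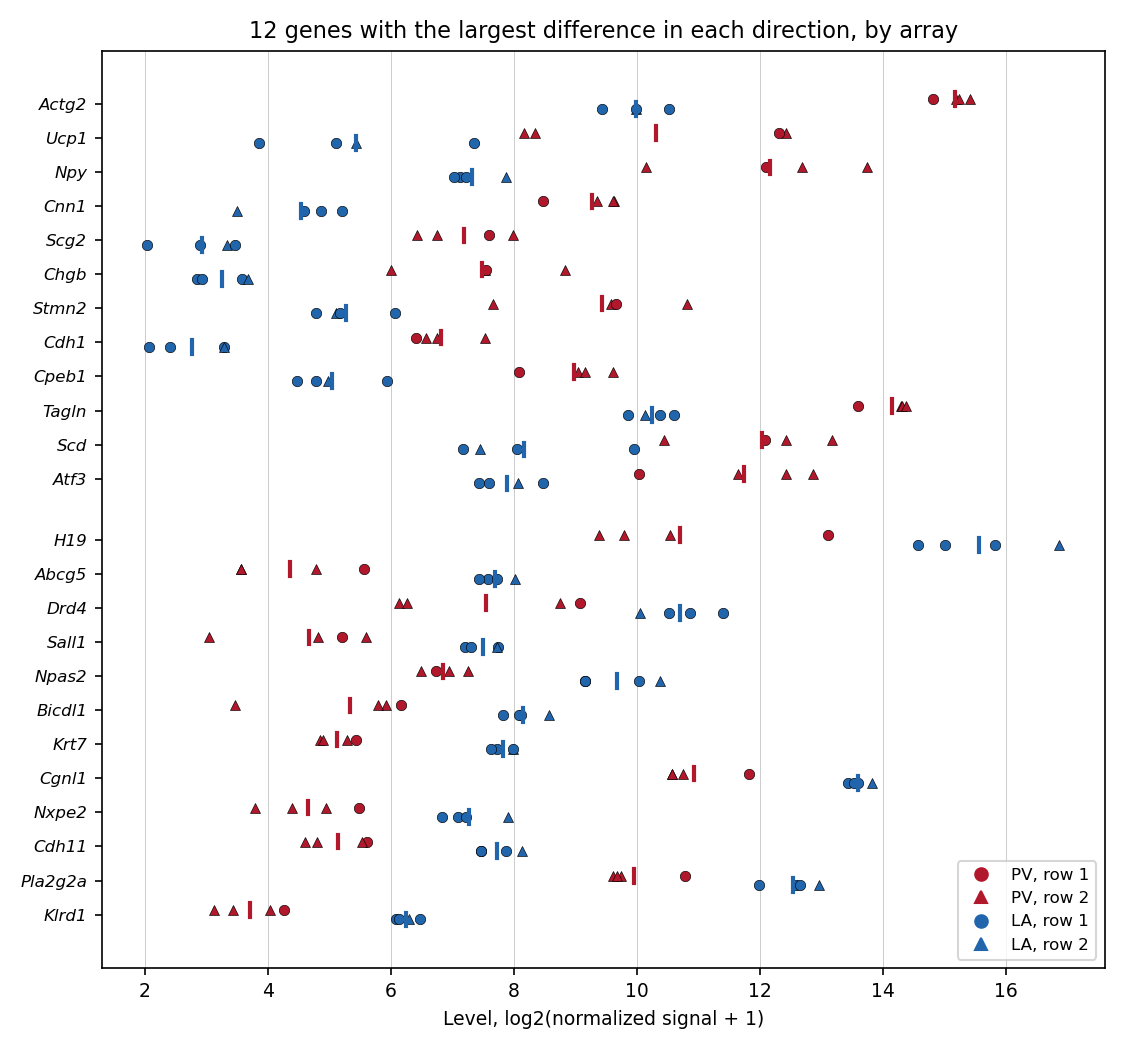
Level (horizontal axis, log2(normalized signal + 1)) of the 12 genes with the largest difference in each direction on each of the 8 arrays. Red marks are PV, blue marks LA, circles arrays in row 1, triangles arrays in row 2 and vertical bars the mean of 4 arrays. The groups do not overlap in any of these genes, which the choice of genes requires, and Ucp1, Npy, H19 and Drd4 spread most within PV.

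Part of the extracellular matrix list was also higher in PV. Of 32 matrix genes, 14 were higher and 1 lower, with a median difference of 0.69. Of the 30 well above background on all 8 arrays, 12 were higher and 1 lower. Among the collagens, without the block, 7 of 8 were higher, and 3 with it. Without PV replicate 3, PV replicate 4 or LA replicate 3, 3 of them were called, and 4 without LA replicate 2 or LA replicate 4. Col1a1, a chain of the main fibrillar collagen, differed by 1.61 ± 0.21, adjusted p = 0.0031, and Col3a1, the collagen of distensible tissue, by 1.46 ± 0.19, adjusted p = 0.00319. Thbs4, a matrix glycoprotein of tendon and stressed muscle, was at 10.81, 10.10, 11.32 and 11.71 on PV replicates 1 to 4 and at 8.0, 7.93, 5.70 and 7.33 on LA replicates 1 to 4. All PV arrays were above all LA arrays, and LA replicate 3 was lowest. The difference was 3.74 ± 0.55 (SE) (adjusted p = 0.00489). Postn, the matricellular protein periostin, differed by 2.64 ± 0.23, adjusted p = 0.000653. Fewer elastic fibre genes were called: 2 of 10 were higher, Mfap4 among them (1.51 ± 0.26, adjusted p = 0.00814), and elastin itself, Eln, was not called (1.21 ± 0.44, adjusted p = 0.109). The single lower gene was Emilin1, a glycoprotein of elastic fibres (-0.85 ± 0.12, adjusted p = 0.00391). The matrix list had 7 calls of higher genes with array row as a block, and without any 1 array 8 to 17.

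A part of the genes of autonomic neurons was higher in PV, unevenly across its arrays. Of 25 tested genes, 10 were higher and 0 lower. Some of them were tested only because they were above background on every PV array, where they were high: of the 15 that were well above background on all 8 arrays, 4 were higher when such genes alone were tested. Npy, the co-transmitter neuropeptide Y of sympathetic neurons, was at 12.69, 12.11, 10.15 and 13.74 on PV replicates 1 to 4 and at 7.13, 7.87, 7.03 and 7.22 on LA replicates 1 to 4. PV replicate 3 was lowest and replicate 4 highest among the PV arrays, with all of them above LA. The difference was 4.86 ± 0.67 (SE), or 29-fold (adjusted p = 0.00391). Stmn2, a microtubule regulator of growing axons, was at 9.58, 9.67, 7.66 and 10.82 on PV replicates 1 to 4 and at 4.78, 5.10, 5.17 and 6.06 on LA replicates 1 to 4. The same array was lowest and the same array highest in PV, and the difference was 4.15 ± 0.61 (SE) (adjusted p = 0.00489).

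Uchl1, a neuronal ubiquitin hydrolase, differed by 3.74 ± 0.54, adjusted p = 0.00467, the medium neurofilament Nefm by 3.54 ± 0.67, adjusted p = 0.012, the synaptic protein Snap25 by 3.53 ± 0.72, adjusted p = 0.0169 and the growth cone protein Gap43 by 2.44 ± 0.23, adjusted p = 0.000914. The granins of neurosecretory vesicles, which were not on the list, were among the 12 largest differences. Scg2 (secretogranin II) was at 6.75, 7.59, 6.42 and 7.99 on PV replicates 1 to 4 and at 2.04, 3.34, 3.47 and 2.89 on LA replicates 1 to 4. None of the LA arrays showed it well above background. Against the lowest signal well above background on each LA array, PV was at least 10.3-fold higher (adjusted p = 0.00107). Chgb, chromogranin B, was likewise not above background in LA and at least 11.6-fold higher (adjusted p = 0.00264). All 9 called list members other than Npy belonged to the 10 genes of cytoskeleton and synapse.

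Genes for making and moving noradrenaline and acetylcholine did not pass the test. Dbh, which makes noradrenaline, was at 10.24, 10.19, 8.81 and 11.43 on PV replicates 1 to 4 and at 8.52, 9.13, 9.02 and 9.04 on LA replicates 1 to 4, higher on 3 of the PV arrays than on any LA array but not on PV replicate 3, with a difference of 1.24 ± 0.48, adjusted p = 0.129. The vesicular and plasma membrane monoamine transporters Slc18a2 and Slc6a2 differed by -0.01 and -0.35 (adjusted p = 0.963 and 0.455). For acetylcholine, its synthetic enzyme Chat differed by 1.19 ± 0.54, adjusted p = 0.189 and its vesicular transporter Slc18a3 by 0.75 ± 0.37, adjusted p = 0.224. The summed signal of the list was 13091 to 42124 on the PV arrays and 8534 to 10222 on the LA arrays. Neuronal calls numbered 7 with array row as a block, Snap25 not among them (adjusted p = 0.052). Without any 1 array 7 to 12 were called. The mean of Nefm was 4.99 in SA and 5.83 in PA, against 8.66 in PV, whereas Stmn2 reached 9.88 in PA and 5.65 in SA against 9.43 in PV.

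Schwann cells, the glia that ensheathe peripheral nerve fibres, followed with less spread. Of 15 tested markers 9 were higher in PV and 0 lower, with a median of 1.33. Of the 13 well above background on all 8 arrays, 8 were higher. S100b, a glial calcium-binding protein, was at 10.42, 10.07, 10.14 and 10.57 on PV replicates 1 to 4 and at 8.54, 8.68, 7.92 and 7.49 on LA replicates 1 to 4. The lowest PV array lay above the highest LA array, LA replicate 2, and the difference was 2.14 ± 0.27 (SE) (adjusted p = 0.00255). The neurotrophin receptor Ngfr differed by 2.14 ± 0.33, adjusted p = 0.00571. Sox10, the transcription factor that defines the lineage, differed by 1.13 ± 0.16, adjusted p = 0.00437. As many as 9 Schwann cell genes were called with array row as a block, and without any 1 array 8 to 9. The summed signal of the list ran from 15826 to 21438 on PV arrays and from 6497 to 8746 on LA arrays.

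Promoters are shown for 2 of the 12 genes with the largest higher difference because they hold a motif of known function, and a further one, that of Cpeb1, holds TATAAA on the opposite strand at position -99 and is not printed. They are RefSeq windows of 300 bases on GRCr8, from 250 bases before to 50 after the start site, available for 8 of the 12 genes. That of Scg2 (chr9:88256817-88257116, minus strand) holds the cyclic AMP response element TGACGTCA, in capitals, starting at position -123. It is present, on either strand, in 2.89% of the promoters of 10021 genes tested. That of Ucp1 (chr19:41721372-41721671, minus strand), the uncoupling protein of brown fat, holds the letters TATAAA, in capitals, at position -30, found on either strand in 9.1% of the 10021. The CArG box, bound by serum response factor, was found in none of the 16 smooth muscle promoters in the table, in 3 of the 14 immediate early promoters and in 1.24% of the 10021. TGACGTCA was in 4 of the 25 autonomic neuron promoters and 4 of the 14 immediate early promoters. A match is a description of the letters, and a missing one says only that they are not in this window. The motifs were chosen after the expression values were known.
Scg2: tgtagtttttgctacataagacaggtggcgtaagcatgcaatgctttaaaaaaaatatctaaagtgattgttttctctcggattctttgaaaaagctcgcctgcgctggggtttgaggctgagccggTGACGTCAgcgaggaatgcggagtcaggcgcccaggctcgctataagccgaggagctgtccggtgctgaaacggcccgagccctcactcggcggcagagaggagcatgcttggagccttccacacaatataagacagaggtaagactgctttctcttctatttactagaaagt
Ucp1: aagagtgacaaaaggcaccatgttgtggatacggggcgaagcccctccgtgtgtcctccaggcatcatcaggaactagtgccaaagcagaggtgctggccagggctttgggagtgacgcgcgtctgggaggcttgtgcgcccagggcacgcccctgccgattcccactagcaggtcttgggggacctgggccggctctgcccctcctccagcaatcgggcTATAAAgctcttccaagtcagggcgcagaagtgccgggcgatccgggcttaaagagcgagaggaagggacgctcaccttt

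Fat genes gave a mixed picture, with single genes very high on some PV arrays. Of 17 tested genes 4 were higher and 1 lower in PV, and 2 and 0 under the row block. Of the 15 well above background on all 8 arrays, 2 were higher, and 6 of the 17 without PV replicate 3. Ucp1 was at 12.42, 12.32, 8.16 and 8.35 on PV replicates 1 to 4 and at 3.86, 5.44, 7.35 and 5.10 on LA replicates 1 to 4. PV replicates 1 and 2 were far above replicates 3 and 4, which were only just above LA replicate 3. The difference of 4.88 ± 1.20 (SE) had an adjusted p of 0.0331, and 0.0606 with array row as a block. Its mean was 12.18 in SA and 12.51 in PA. Scd, the stearoyl-CoA desaturase of lipid synthesis, not on the list, was at 13.18, 12.08, 10.45 and 12.43 on PV replicates 1 to 4 and at 7.18, 7.45, 9.95 and 8.05 on LA replicates 1 to 4, with a difference of 3.88 ± 0.73, adjusted p = 0.0121. PV replicate 3 was again lowest in PV, close to LA replicate 3.

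The lipid droplet protein Cidec differed by 2.22 ± 0.38, adjusted p = 0.00878, and Pparg, the adipocyte transcription factor, by 0.69 ± 0.14, adjusted p = 0.0185. Adiponectin, Adipoq, the hormone of mature adipocytes, was at 10.88, 10.09, 8.38 and 10.84 on PV replicates 1 to 4 and at 8.06, 9.06, 7.66 and 6.82 on LA replicates 1 to 4 and overlapped between regions, with a difference of 2.15 ± 0.65, adjusted p = 0.0636 that was not called. The hormone-sensitive lipase Lipe was lower (-0.46 ± 0.11, adjusted p = 0.0313), but with array row as a block neither Lipe nor Pparg was called (0.112 and 0.0661). The summed signal of the fat list overlapped, 271120 to 337254 on PV arrays and 260992 to 314903 on LA arrays. Fat was trimmed by hand in the dissection, and its part in the differences of other genes was not tested.

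Markers of lung and blood were also read. Of 8 tested lung epithelium genes 1 was higher in PV, and 0 of the 7 well above background on all 8 arrays. The share is close to the 13.9% called over all genes. The higher gene was Cdh1, the epithelial adhesion protein E-cadherin, at 6.57, 6.41, 6.75 and 7.53 on PV replicates 1 to 4 and at 3.28, 3.29, 2.07 and 2.41 on LA replicates 1 to 4. None of the LA arrays showed it well above background, and PV was at least 7.73-fold higher (adjusted p = 0.000602). Its mean was 3.81 in SA and 2.85 in PA. The surfactant genes Sftpc and Sftpb did not meet the rule for being compared, with levels of 4.76 to 6.10 and 3.14 to 4.29 on the PV arrays and 4.60 to 6.30 and 4.01 to 5.47 on the LA arrays. The club cell gene Scgb1a1 differed by -0.19 ± 0.41, adjusted p = 0.809. Of 4 red cell genes 3 were higher in PV, the alpha globin Hba-a1 by 1.41 ± 0.21, adjusted p = 0.00489 and the beta globin Hbb by 1.75 ± 0.23, adjusted p = 0.00319. With the row block 2 red cell genes were called, and among lung genes Cdh1. Their summed signal was 72605 to 108862 on PV arrays and 25807 to 44778 on LA arrays, and the part of blood left in the tissue in other differences was not tested.

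**Figure D3:**
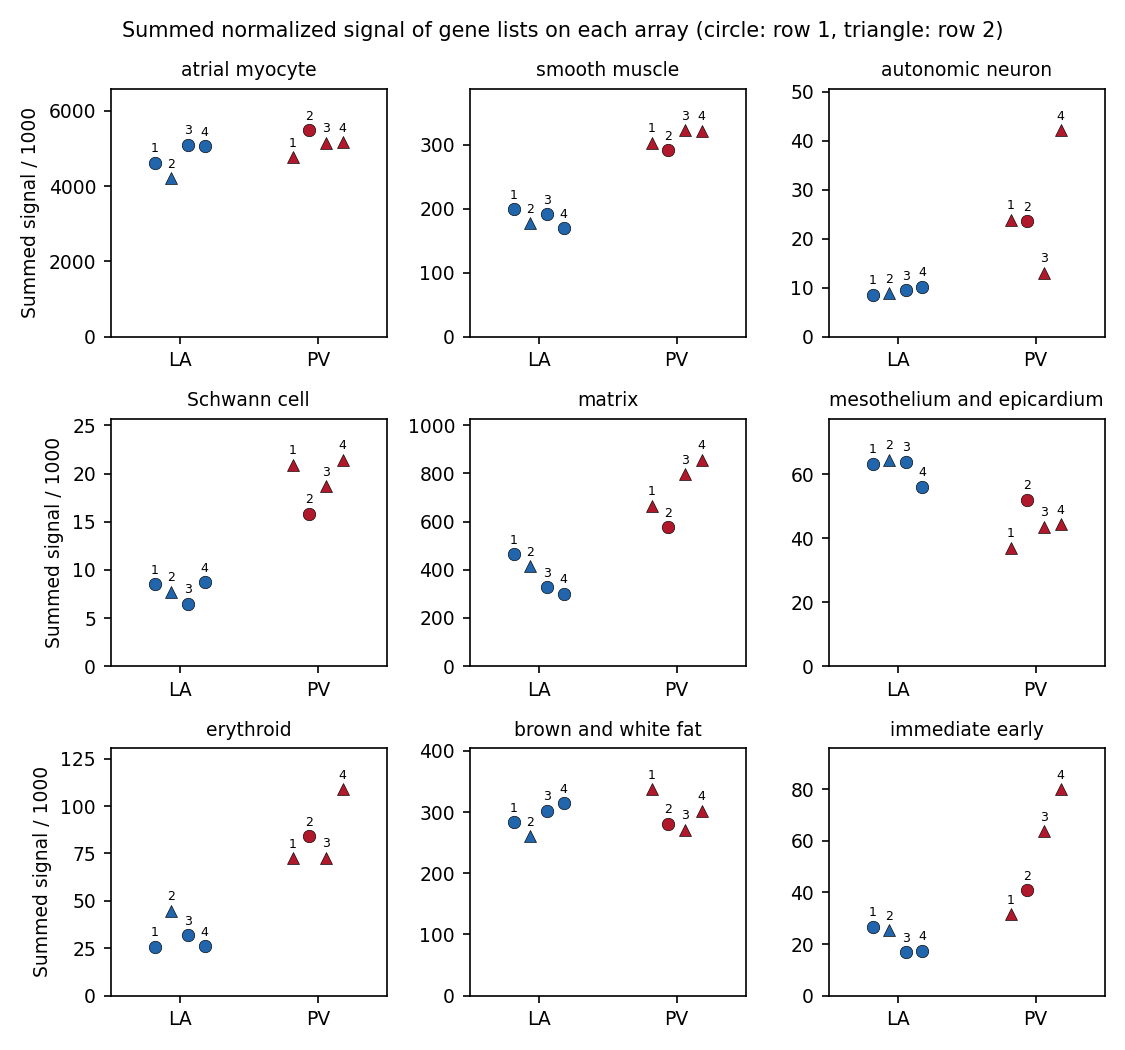
Summed normalized signal (divided by 1000, linear axis from 0) of the genes of 9 lists on each array, with LA in blue and PV in red. Circles are arrays in row 1, triangles arrays in row 2, and the number above a point is the replicate. PV lies above LA on every array for smooth muscle, autonomic neuron, Schwann cell, matrix, erythroid and immediate early genes and below it for mesothelium and epicardium.

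Pacemaker and conduction genes moved in both directions. Of 28 tested genes 6 were higher and 5 lower, 11 of 28 against 13.9% of all genes, with a median of 0.27. Of the 25 well above background on all 8 arrays, 5 were higher and 5 lower. The higher genes included 3 of 7 secreted or signalling genes, and the higher calls fell to 4 without PV replicate 4 or LA replicate 3. Shox2, a homeobox transcription factor needed for the sinoatrial node and expressed in pulmonary vein myocardium, was at 10.91, 11.06, 11 and 11.16 on PV replicates 1 to 4 and at 8.20, 7.90, 7.99 and 7.52 on LA replicates 1 to 4. Within a region the arrays lay close together, and the difference of 3.13 ± 0.14 (SE), 8.76-fold, had an adjusted p of 0.000102. Its array range was 11.30 to 11.55 in SA and 2.94 to 4.80 in LV. Hcn4, the main pacemaker channel of the node, was at 9.09, 9.82, 8.57 and 9.27 on PV replicates 1 to 4 and at 7.55, 8.70, 8.72 and 7.82 on LA replicates 1 to 4. Only PV replicate 3 overlapped LA, and the difference of 0.99 ± 0.35, adjusted p = 0.0987 was not called.

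Tbx3, a repressor that defines the node, differed by 0.56 ± 0.28, adjusted p = 0.224 and was not called. Nkx2-5, a core cardiac factor that Shox2 is known to antagonize, was lower (-0.85 ± 0.15, adjusted p = 0.00993), as was Tbx18 (-0.43 ± 0.10, adjusted p = 0.0318), a factor of the venous pole, for which 1 probe pointed the other way (0.47). The T-type calcium channel Cacna1h was at 8.18, 9.56, 8.71 and 8.52 on PV replicates 1 to 4 and at 10.95, 11.31, 11.49 and 10.98 on LA replicates 1 to 4. All PV arrays lay below all LA arrays, by -2.44 ± 0.28 (SE), with an adjusted p of 0.0019. The connexins moved in opposite directions, Gja5, the connexin of fast-conducting tissue, by 1.61 ± 0.17, adjusted p = 0.00128 and Gja1, the main connexin of working myocardium, by -0.81 ± 0.14, adjusted p = 0.00975. Kcnj5, a subunit of the acetylcholine-activated potassium channel, was lower (-0.78 ± 0.10, adjusted p = 0.00327), whereas its partner Kcnj3 was not called (-0.51 ± 0.16, adjusted p = 0.0692). The block by array row gave 5 members higher and 4 lower, without Tbx18 (adjusted p = 0.109).

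Of 35 genes of potassium and sodium channels, exchangers and chloride channels, 10 were higher and 2 lower in PV, with a median of 0.04. The 6 exchanger or chloride channel genes gave 3 higher and 1 lower. Sodium channel genes counted 4 of 6 higher, and 2 under the row block. For the whole list the higher calls fell to 6 without PV replicate 3, PV replicate 4, LA replicate 2 or LA replicate 3. The lower calls were 0 or 1 when 1 array was left out. Scn3b, a beta subunit of sodium channels, was at 9.01, 8.71, 8.40 and 9.61 on PV replicates 1 to 4 and at 6.76, 7.91, 6.76 and 6.46 on LA replicates 1 to 4. LA replicate 2 was the highest of LA and still below every PV array, and the difference was 1.96 ± 0.36 (SE) (adjusted p = 0.011). Another beta subunit, Scn4b, differed by 0.93 ± 0.23, adjusted p = 0.0353. Among potassium channels 3 of 23 were higher and 1 lower.

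Kcnk1, a two-pore potassium channel subunit, was at 10.22, 10.03, 10.43 and 10.90 on PV replicates 1 to 4 and at 7.91, 7.93, 7.77 and 8.51 on LA replicates 1 to 4. PV stood above LA on all arrays with a difference of 2.36 ± 0.22 (SE) (adjusted p = 0.000868), although its probes ranged from 0.44 to 3.0. Its mean in SA was 10.67 ± 0.25, with arrays from 10.34 to 10.89 that overlap those of PV (10.03 to 10.90). Kcnip2, the subunit that shapes the transient outward current, was higher (1.74 ± 0.28, adjusted p = 0.00632). The inward rectifier Kcnj2 passed the background call on all 4 LA arrays but on 1 PV array, at 4.36 to 6.75 and 3.10 to 6.62, and was not called (-0.50 ± 0.80, adjusted p = 0.737). The atrial channel Kcna5 was not called either (0.60 ± 0.24, adjusted p = 0.143). Of these channel genes 5 were higher and 0 lower with array row as a block, without Scn4b (adjusted p = 0.128).

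Of the transcription factors of position and cardiac identity, more were lower than higher in PV. Of 35 tested transcription factors, 4 were higher and 10 lower. Part of the lower genes were tested only through LA, where they were high: of the 32 well above background on all 8 arrays, 4 were higher and 7 lower. Lower calls fell to 5 without LA replicate 3 and to 6 without PV replicate 4. Besides Shox2, the higher genes included the homeobox genes Emx2 (1.92 ± 0.27, adjusted p = 0.00444) and Prrx1 (1.65 ± 0.18, adjusted p = 0.00154), a mesenchymal factor. Sall1, a zinc-finger factor of organ development, was at 4.82, 5.21, 5.60 and 3.05 on PV replicates 1 to 4 and at 7.75, 7.73, 7.21 and 7.31 on LA replicates 1 to 4. It was well above background on 2 PV arrays and all LA arrays, and the difference was -2.83 ± 0.50, adjusted p = 0.00964. The forkhead factor Foxc1 was lower (-1.69 ± 0.20, adjusted p = 0.0021), as were Etv1 (-0.68 ± 0.09, adjusted p = 0.00329), a factor of fast-conducting myocardium, Gata4 (-0.45 ± 0.09, adjusted p = 0.0183) and Gata5 (-0.76 ± 0.16, adjusted p = 0.019).

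The Iroquois factor Irx4, known from the ventricle, was well above background on no PV array and all LA arrays, at least 1.98-fold lower in PV (adjusted p = 0.0274), and its mean over the ventricles was 12.39. Irx5 differed by -1.61 ± 0.17, adjusted p = 0.00138. Hox genes, which mark position along the body axis, gave 3 higher and 0 lower among 10 tested. Hoxa2 differed by 2.02 ± 0.21, adjusted p = 0.00114, Hoxb3 by 2.05 ± 0.22, adjusted p = 0.00128 and Hoxb4 by 1.18 ± 0.15, adjusted p = 0.00283. For Hoxb3 another probe gave -0.03. All 3 had higher means in PA, 12.07, 10.97 and 11.37, than in PV, 8.67, 8.09 and 8.76. The 3 Hox genes were also called with array row as a block, and among the transcription factors 3 were higher and 6 lower, without Gata4 (adjusted p = 0.0677) and Gata5 (0.081).

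**Figure D4:**
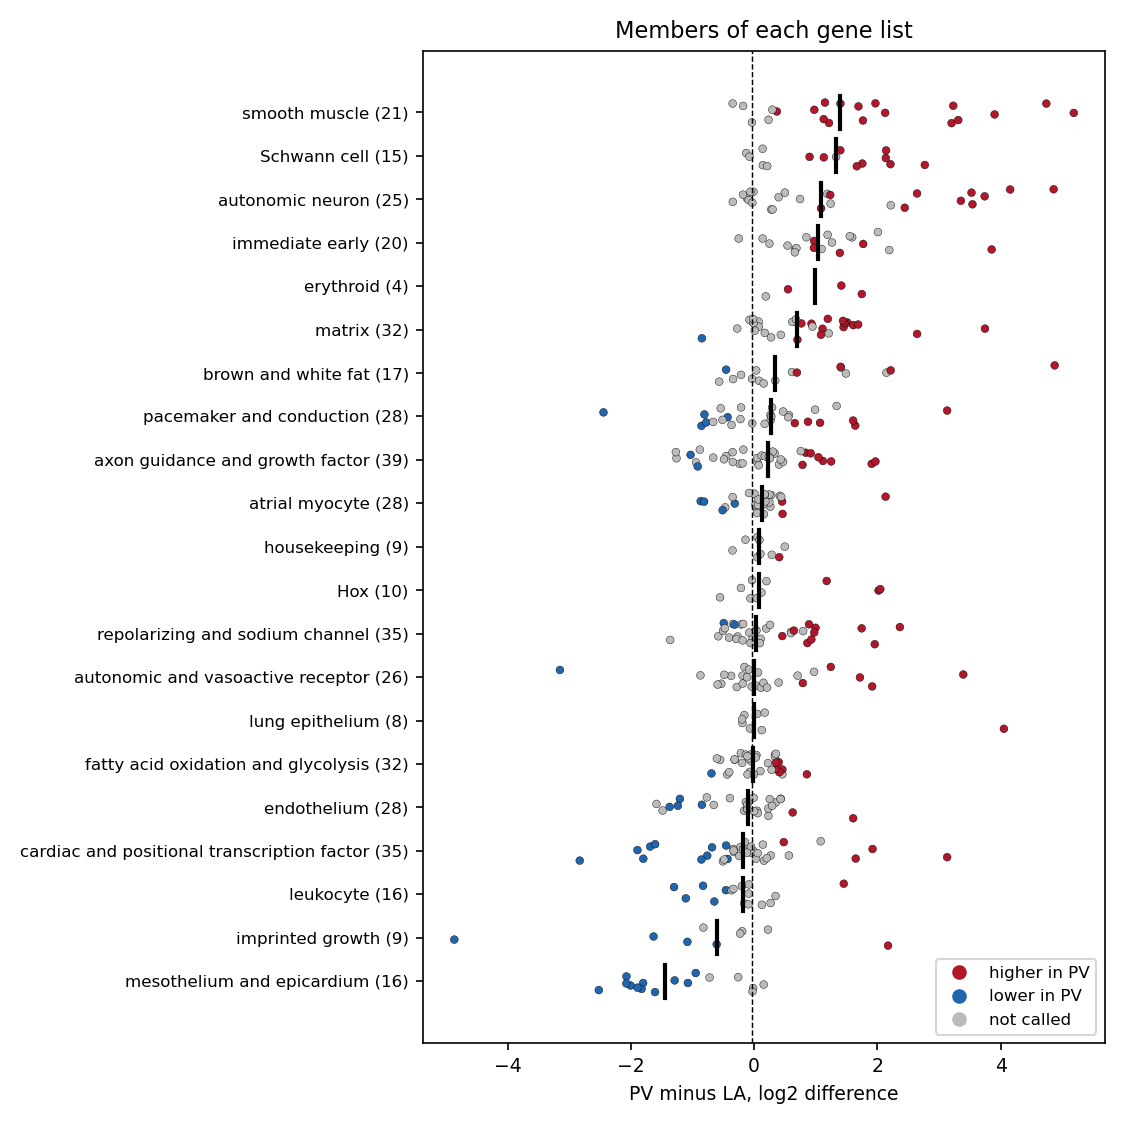
Log2 difference between PV and LA (horizontal axis) of each tested member of 21 gene lists, with the number tested in parentheses, thick bars at list medians and a dashed line at the median of all genes, -0.04. Smooth muscle, Schwann cell and autonomic neuron lists have the highest medians and the mesothelium and epicardium list the lowest, -1.45.

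On the lower side were genes of the outer lining of the heart. The mesothelium and its cardiac form, the epicardium, are a sheet of cells rich in keratins. Of 16 tested genes 11 were lower in PV and 0 higher, with a median of -1.45. Of the 15 well above background on all 8 arrays, 10 were lower. Msln, the surface protein mesothelin, was at 12.65, 12.74, 11.22 and 12.31 on PV replicates 1 to 4 and at 13.91, 14.18, 14.17 and 13.85 on LA replicates 1 to 4. All PV arrays were below all LA arrays, PV replicate 3 furthest, and the difference was -1.80 ± 0.32, adjusted p = 0.0092. Keratin 18 (Krt18) differed by -2.52 ± 0.29, adjusted p = 0.002, Upk1b, a uroplakin of mesothelium, by -2.07 ± 0.31, adjusted p = 0.00489, and Gpm6a, a membrane glycoprotein, by -2.07 ± 0.30, adjusted p = 0.00479. Krt7, another keratin of simple epithelia and not on the list, differed by -2.71 ± 0.16, adjusted p = 0.000186. Wt1, the transcription factor of the epicardium, differed by -1.07 ± 0.21, adjusted p = 0.0133. Fewer mesothelial genes, 7, were called with array row as a block, without Wt1 (adjusted p = 0.0607), and without any 1 array 8 to 10.

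H19 was the gene with the largest lower difference. This imprinted non-coding RNA, abundant in fetal tissue, was at 10.54, 13.11, 9.38 and 9.80 on PV replicates 1 to 4 and at 15.83, 16.87, 15.02 and 14.57 on LA replicates 1 to 4. PV replicate 2 was the highest of PV and remained below LA, and the difference was -4.86 ± 0.84 (SE) (adjusted p = 0.00879). Its neighbour Igf2, a fetal growth factor, was lower (-1.63 ± 0.40, adjusted p = 0.0322), with array row as a block at an adjusted p of 0.101. Of 9 imprinted growth genes 4 were lower and 1 higher, and 2 were lower when any 1 of PV replicates 1, 3 and 4 and LA replicates 1 to 3 was left out. The higher gene was the non-coding RNA Meg3 (2.17 ± 0.22, adjusted p = 0.00111), whose mean was 13.81 in SA. Plagl1, a zinc-finger regulator of growth, was lower (-1.08 ± 0.17, adjusted p = 0.0062). The row block left 2 lower, H19 and Plagl1, and 1 higher.

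Further genes among the 12 largest lower differences were, apart from Drd4 of the receptor list, on no list. Abcg5, a sterol transporter, was at 3.56, 5.56, 3.56 and 4.79 on PV replicates 1 to 4 and at 7.58, 8.02, 7.44 and 7.73 on LA replicates 1 to 4. It was well above background on 1 PV array and all LA arrays, with a difference of -3.32 ± 0.44, adjusted p = 0.0033. With each PV array raised to at least its lowest signal well above background, the difference was -2.61, and by the same measure -2.39 for Sall1, -2.56 for Bicdl1, -2.26 for Nxpe2 and -2.42 for Cdh11, which were dim on 1 to 3 PV arrays each. The dopamine receptor Drd4 was at 8.75, 9.07, 6.13 and 6.27 on PV replicates 1 to 4 and at 10.86, 10.05, 10.52 and 11.40 on LA replicates 1 to 4. PV replicates 3 and 4 were well below replicates 1 and 2, and the difference of -3.15 ± 0.72, adjusted p = 0.0255 had an adjusted p of 0.0915 with array row as a block. The dynein adaptor Bicdl1 differed by -2.82 ± 0.56, adjusted p = 0.015, at 0.0638 with the block. Cgnl1, a protein of cell junctions, differed by -2.66 ± 0.27, adjusted p = 0.00113, cadherin 11 (Cdh11) by -2.59 ± 0.27, adjusted p = 0.00114, the secreted phospholipase Pla2g2a by -2.59 ± 0.30, adjusted p = 0.00203 and Nxpe2 by -2.62 ± 0.37, adjusted p = 0.00445. On the higher side Cpeb1, a protein that binds mRNA and controls its polyadenylation, was at 9.61, 8.08, 9.05 and 9.15 on PV replicates 1 to 4 and at 5.94, 4.98, 4.47 and 4.79 on LA replicates 1 to 4 and belonged to no list either. The regions did not overlap, and its difference was 3.93 ± 0.39, adjusted p = 0.00109.

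Endothelial genes differed in both directions. Of 28 tested, 2 were higher and 4 lower, with a median of -0.10. These 6 of 28 called genes compare with 13.9% of all genes, and with array row as a block 1 was higher and 5 lower. Higher calls fell to 1 without PV replicate 1, 3 or 4 or LA replicate 3 or 4. The pan-endothelial genes Pecam1, Cdh5 and Vwf differed by -0.39, -0.16 and -0.09 and were not called (adjusted p = 0.229, 0.593 and 0.588). The adhesion molecule Vcam1 was lower (-1.24 ± 0.21, adjusted p = 0.008), as were Plvap, a protein of fenestrated vessels (-1.20 ± 0.23, adjusted p = 0.013), and Pdpn, which marks lymphatic vessels and also mesothelium (-1.37 ± 0.20, adjusted p = 0.00455). Among leukocyte genes 1 of 16 was higher, the mast cell tryptase Tpsab1 (1.45 ± 0.17, adjusted p = 0.00215), and 5 were lower, among them the pan-leukocyte gene Ptprc (-0.83 ± 0.12, adjusted p = 0.00442) and the macrophage gene Adgre1 (-0.65 ± 0.12, adjusted p = 0.0108). Among leukocytes the row block gave 1 gene higher and 3 lower.

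Receptors for transmitters and vasoactive hormones gave 5 higher and 1 lower of 26 tested, and 3 higher and 1 lower of the 23 well above background on all 8 arrays. Of all genes, 7.04% were called higher and 6.86% lower. Leaving out PV replicate 1 or 4 or LA replicate 1, 3 or 4 brought the higher calls to 3, and the lower calls ran from 0 to 2, with 2 without PV replicate 2 and 0 without PV replicate 3 or 4 or LA replicate 1, 2 or 4. Npy1r, a receptor of neuropeptide Y, was at 8.0, 8.29, 8.10 and 8.98 on PV replicates 1 to 4 and at 5.19, 4.50, 5.25 and 4.85 on LA replicates 1 to 4. The gap between the regions was wide on all arrays, with a difference of 3.39 ± 0.25 (SE) (adjusted p = 0.000355). The angiotensin receptor Agtr1a differed by 1.24 ± 0.18, adjusted p = 0.00445, the prostaglandin receptor Ptger3 by 1.72 ± 0.25, adjusted p = 0.00451 and the beta-3 adrenoceptor Adrb3, known from fat, by 1.91 ± 0.49, adjusted p = 0.0368. The muscarinic receptor Chrm2 and the beta-1 adrenoceptor Adrb1, the chief receptors of the heart for each nerve, were not called (-0.16 and -0.37, adjusted p = 0.424 and 0.315). The row block gave 3 receptors higher and 0 lower, without Adrb3 (adjusted p = 0.135).

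Of 39 guidance and growth factor genes 8 were higher and 2 lower, and 5 and 3 of the 29 well above background on all 8 arrays. The higher calls fell to 5 without PV replicate 4, and the lower calls were 4 without PV replicate 2, 1 without PV replicates 1 or 4 or LA replicates 2 or 4, and 2 or 3 otherwise. The bone morphogenetic protein Bmp7 differed by 1.91 ± 0.14, adjusted p = 0.000373, the Wnt ligand Wnt6 by 1.97 ± 0.37, adjusted p = 0.0114 and Artn, a neurotrophic factor for sympathetic neurons, by 1.12 ± 0.25, adjusted p = 0.0241. Fgf13 and Wnt5a were lower (-1.03 and -0.91, adjusted p = 0.0413 and 0.00917). With array row as a block 3 were higher and 1 lower, and Wnt6 (0.0523), Artn (0.0896) and Fgf13 (0.111) were not called.

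Some of the genes that respond within minutes to stimulation or stress were higher in PV as well. Of 20 immediate early genes 5 were higher and 0 lower, with a median of 1.03. The higher calls were 13 with slide as a block or with all 23 arrays in the fit. They were 2 without the filter on dim genes. Atf3, a stress-induced transcription factor, was at 12.42, 10.04, 12.87 and 11.65 on PV replicates 1 to 4 and at 8.47, 8.07, 7.59 and 7.43 on LA replicates 1 to 4. All PV arrays lay above LA, PV replicate 2 least, and the difference was 3.85 ± 0.57 (SE) (adjusted p = 0.005). Nr4a1 and Jun differed by 1.77 ± 0.43, adjusted p = 0.0332 and 1.39 ± 0.37, adjusted p = 0.0427, both without the call when array row was a block (0.124 and 0.152). Fos was at 7.42, 10.20, 10.38 and 11.59 on PV replicates 1 to 4 and at 8.15, 8.65, 6.85 and 7.16 on LA replicates 1 to 4 and was not called (2.19 ± 0.84, adjusted p = 0.127), with PV replicate 1 inside the LA range and PV replicate 4 highest. With array row as a block 2 members were called, and 2 to 10 without any 1 array, 10 of them without PV replicate 1 and 2 without PV replicate 3 or 4 or LA replicate 1, 3 or 4. The time between excision and lysis of each sample was not analysed here.

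Called genes of energy metabolism were mainly those of glucose use. Of 15 genes of glucose use 6 were higher, by less than 1 each, among them the transporter Slc2a1 (0.86 ± 0.22, adjusted p = 0.0404), hexokinase 1, Hk1 (0.46 ± 0.09, adjusted p = 0.0144), and Gapdh (0.41 ± 0.11, adjusted p = 0.0394). Of 17 fatty acid genes 1 was lower, Hadhb (-0.69 ± 0.18, adjusted p = 0.0412). The higher calls among glucose genes ran from 0 with replicate number as a block to 11 with all 23 arrays in the fit. They were 4 under quantile normalization and 2 with another background correction (normexp). Leaving out 1 array left 0 to 4 glucose genes called higher, 0 without LA replicate 2 and 1 without PV replicate 4. It left 2 without PV replicate 3, LA replicate 1 or LA replicate 3. With the row block 4 glucose genes and 1 fatty acid gene were higher and 0 lower. Without the block no fatty acid gene was called higher. Gapdh was also the only called gene of 9 housekeeping genes, of which Actb differed by 0.50 ± 0.22, adjusted p = 0.184 and Ppia by 0.05 ± 0.08, adjusted p = 0.734, and no housekeeping gene was called with array row as a block and at most 1 when an array was left out.

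**Figure D5:**
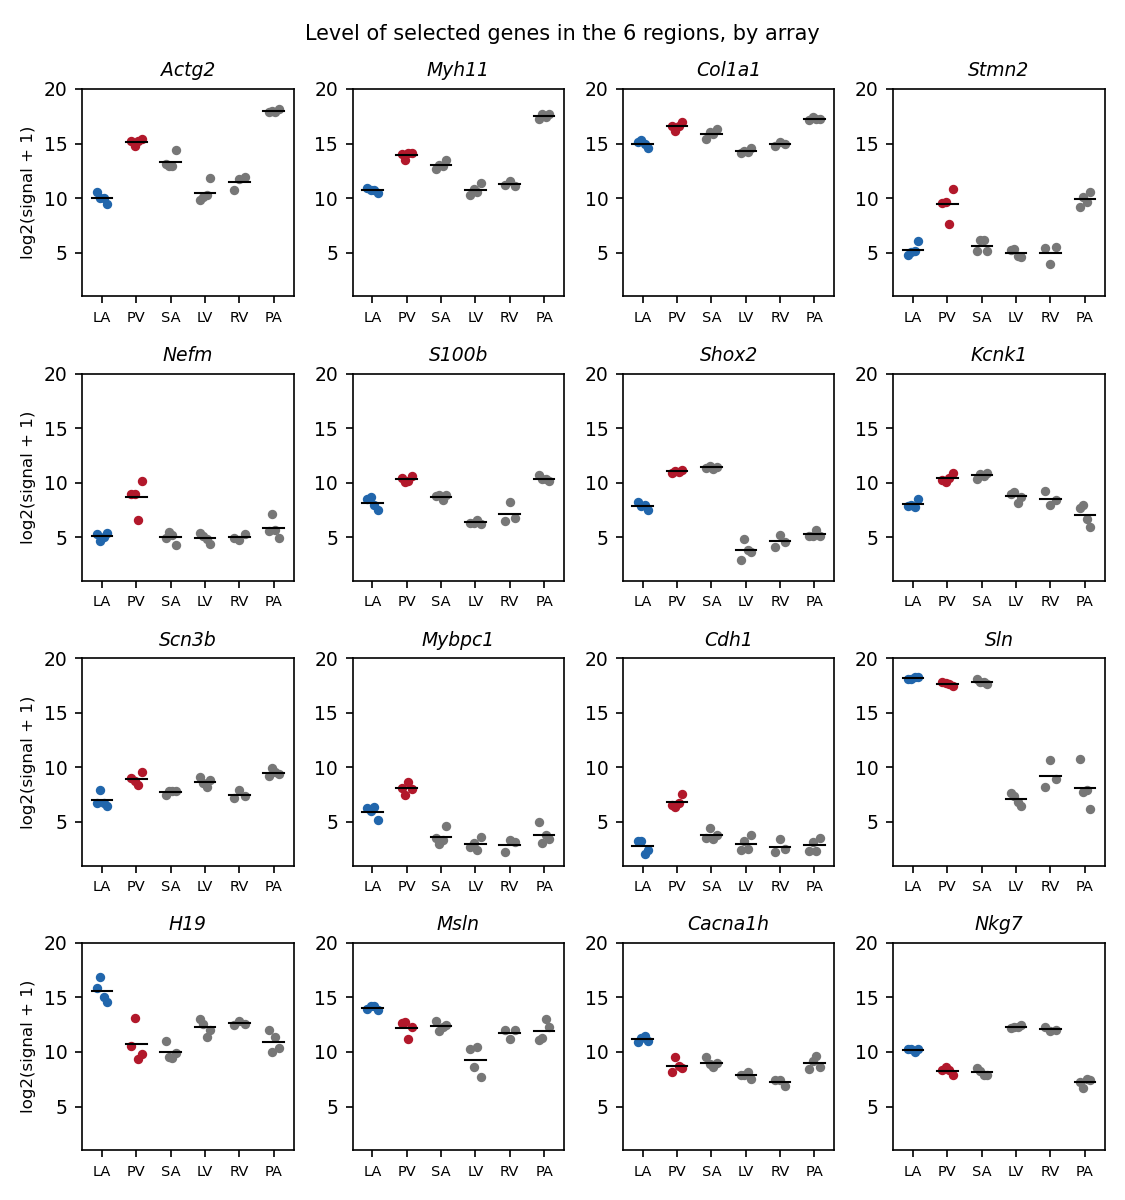
Level (vertical axis, log2(signal + 1)) of 16 selected genes on each array of LA, PV, SA, LV, RV and PA, with horizontal bars at the means. Smooth muscle genes such as Actg2 are highest in PA, Shox2 and Kcnk1 lie above LA in both PV and SA, and the mean of Mybpc1, Nefm and Cdh1 is highest in PV.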

How the data were processed

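RNA of each region was labeled with Cy3 and hybridized to single-color Agilent rat arrays (SurePrint G3). The deposited values were normalized signals: per the labels and methods, the authors took the intensity from Agilent Feature Extraction (version 11.0.1.1), background-subtracted and detrended it, and scaled each array to its 90th percentile. The deposited intensities are linear, and set against the scanner intensities they are those times 1 factor per array. Such scaling fixes a high percentile, so a difference is relative to the other genes. Background calls came from the scanner files.

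Of 45596 probes, 156 with a missing value were removed, and 21047 of the remaining 45440 were named through RefSeq accessions, giving 16544 genes, 3638 of them with several probes. The highest probe was used on each array, then log2(signal + 1). limma 3.58.1 (R 4.3.3; lmFit and eBayes, 4 arrays against 4, no covariates, Benjamini-Hochberg) tested 12254 genes. In simulated data, 66.5% of 200 genes changed by a log2 of 1 were recovered, with 4 false calls among 12254 genes. No spot was saturated. Each of the 8 arrays had 59.9% to 79.8% of its probes well above background. A fold "at least" compares means with arrays of the dim region raised to their lowest signal well above background. Where arrays of a region were dim, fitted differences of low genes are uncertain.

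Genes named are the 12 with the largest difference in each direction (adjusted p below 0.05, well above background on all arrays of the higher region, no overlap), up to 5 called members of each list in each direction and defining members. Some genes that met this rule are not reported here and are counted only within their lists. The members, lists and rule were chosen with earlier results of these data known. Summed list signals mix probes of different brightness and serve only to compare arrays. Alternatives were other scalings, background correction (normexp, offset 50), a pseudocount of 16, filters, probe choice, the methods' analysis of variance, all 23 arrays, a variance trend, blocks by slide, row or replicate number, and each array left out. Python 3.11.15 with pandas 2.3.3, numpy and matplotlib made tables and plots.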

Additional observations from a re-analysis of the deposited data

Results flagged for a closer look

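In the 330 groups of 4 arrays formed by the 165 genes named, 1 array stood apart from the other 3 by Dixon's criterion in 18. Chance gives about 1 in 20 groups, close to the share found. PV replicate 2, the only PV array in row 1, was that array in 8 of the 18 groups. On PV replicate 2, Tagln was at 13.60 against 14.29 to 14.38 on the other PV arrays, Cgnl1 was at 11.82 against 10.57 to 10.76 on the other PV arrays, Pla2g2a was at 10.79 against 9.62 to 9.74 on the other PV arrays. The same array had Kcnmb1 at 7.28 against 7.97 to 8.06 and Lmod1 at 9.42 against 9.89 to 9.96. It had Scgb1a1 at 4.81 against 6.19 to 6.35 and Scn4b at 9.41 against 10.21 to 10.25 and Slc2a1 at 11.12 against 10.13 to 10.29. Bicdl1 was at 3.46 on PV replicate 3 against 5.79 to 6.17 on the others, Ngfr was at 6.47 on LA replicate 1 against 6.04 to 6.08 on the others, and Mbp was at 11.10 on LA replicate 3 against 11.60 to 11.69 on the others. Mybphl was at 17.80 on PV replicate 4 against 17.58 to 17.61 on the others, Hoxa2 was at 8.39 on PV replicate 3 against 8.75 to 8.78 on the others, and Cdh5 was at 8.67 on PV replicate 4 against 9.32 to 9.44 on the others. Cdh5 was at 9.57 on LA replicate 4 against 9.26 to 9.31 on the others, Vwf was at 14.14 on LA replicate 4 against 13.86 to 13.89 on the others, and Egr1 was at 8.20 on LA replicate 3 against 8.80 to 8.91 on the others. Nkg7 was at 10.03 on LA replicate 3 against 10.25 to 10.26 on the others.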

How the results depend on the processing

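The count of 1704 genes (863 higher, 841 lower) stayed within 1.5 times under the other scalings, normexp, a pseudocount of 16, the highest-mean probe, all 23 arrays (2325), the methods' analysis of variance (1365), the trend, the slide block and the added filter for genes above background on all 8 arrays (1644 of 11355). Of these, normexp (792 higher, 622 lower) and the 75th percentile (863 and 700) moved the split furthest. Without the filter on dim genes 1122 of 16544 were called, 525 of them lower. This fit tested more genes, many of them dim. With array row as a block 903 were called (483 higher, 420 lower), in row 1 alone 0 (0 and 0), in row 2 alone 15 (12 and 3). Rows alone have 1 array of a region, which is assumed to vary like the others. With the replicate block 1006 were called (555 higher, 451 lower). Deviations from the region means had correlations of 0.25, 0.14, -0.20 and -0.12 between same-numbered arrays. Between differently numbered arrays they ran from -0.32 to 0.34. With 4 arrays in a region, these values cannot show whether the numbers pair the samples. Leaving out 1 array gave 925 to 1547 genes, 505 to 791 higher and 416 to 756 lower. The cause of these moves was not tested.

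Of 165 genes named and tested, 131 were called. None of these reversed under those of the 25 alternatives that tested them, and 87 kept the call under all such alternatives except single rows. The filter for all 8 arrays tested 105 of the 131. Array row as a block ended 32 calls, the replicate block 31, leaving out LA replicate 2 ended 28, and quantile normalization 5. Of the 34 not called, 7 were called under some alternative. Levels near 4 lie close to background, which limits the size of differences of dim genes.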

Other observations

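A pair of gene groups was chosen after their values were seen and is given without a test of the group. All 14 genes picked for cytotoxic lymphocytes and natural killer cells were called lower in PV, where 6.86% of all genes were, but 6 of them were tested only through LA, where they were high, and 8 were well above background on all 8 arrays. Array row as a block left 12 of the 14 called. Klrd1, a receptor of natural killer cells, was at 4.03, 4.27, 3.43 and 3.12 on PV replicates 1 to 4 and at 6.48, 6.30, 6.09 and 6.13 on LA replicates 1 to 4. It was well above background on no PV array, at least 3.15-fold lower (adjusted p = 0.000996), and its mean over the ventricles was 7.96. The granzyme Gzmc differed by -2.37 ± 0.17, adjusted p = 0.000351, the chemokine Ccl5 by -2.21 ± 0.22, adjusted p = 0.00112, the granule protein Nkg7 by -1.90 ± 0.16, adjusted p = 0.000622, the surface protein Cd7 by -2.50 ± 0.18, adjusted p = 0.000355 and the perforin gene Prf1 by -1.58 ± 0.22, adjusted p = 0.00435. The mean of Nkg7 was 10.20 in LA, 8.30 in PV, 8.13 in SA and 12.23 over the ventricles.

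Of 13 genes of the circadian clock, 3 were higher, 2 lower and 8 not called, with 3 and 2 also under array row as a block. The higher calls fell to 1 without PV replicate 3 or LA replicate 3, and the lower calls to 1 without LA replicate 2. The activators Npas2 and Bmal1 were lower in PV. Npas2 was at 7.26, 6.73, 6.94 and 6.49 on PV replicates 1 to 4 and at 9.16, 10.37, 10.04 and 9.16 on LA replicates 1 to 4, with a difference of -2.83 ± 0.30, adjusted p = 0.00134. Bmal1 was at 7.75, 6.85, 6.46 and 7.37 on PV replicates 1 to 4 and at 8.40, 10.47, 10.51 and 9.06 on LA replicates 1 to 4, with a difference of -2.50 ± 0.52, adjusted p = 0.0179. The repressors Per2 and Cry2 were higher (1.51 ± 0.26, adjusted p = 0.00858 and 0.66 ± 0.14, adjusted p = 0.0196), as was the output factor Tef (0.83 ± 0.23, adjusted p = 0.0493). Dbp was at 15.22, 15.05, 15.45 and 14.46 on PV replicates 1 to 4 and at 15.05, 13.14, 13.01 and 14.72 on LA replicates 1 to 4, with LA replicates 2 and 3 lowest, and was not called (1.07 ± 0.49, adjusted p = 0.197), nor was Nr1d1 (-0.06 ± 0.46, adjusted p = 0.954). LA replicates 2 and 3 were also the highest in Npas2 and Bmal1. The hour of sampling of each array was not analysed here.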
